A study of Mus musculus with 44 samples.

Results

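The regions described here are short, tall stretches of H3K27me3 on the autosomes of mouse haematopoietic progenitor cells at which no RING1B or PCGF1 peak was listed. They were selected on deposited values: chromosomes 1 to 19, fewer than 2000 bp from start to end, a height of at least 100, and no base shared with any RING1B or PCGF1 peak. The rule found 2095 regions among the 135391 of the H3K27me3 list, of which 121056 lay on autosomes. Height, width and the absence of RING1B and PCGF1 therefore chose the regions and are given below as a description.

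The H3K27me3 list stands for 2 libraries of cultured Pcgf1 fl/fl IdHP cells, the RING1B list for 2 libraries of the same genotype, and the PCGF1 list for 2 libraries made with a FLAG antibody in Pcgf1 -/- IdHP cells given FLAG-PCGF1. IdHP cells are bone marrow progenitors of the strain B6CBAF1/J, at passage 15 to 18 on TSt4 stroma with added cytokines, and nothing in the labels says whether the cultures came from separate animals or are a single clone. The FLAG libraries come from other cells than the rest, cells that lack the endogenous protein and carry a tagged one. The remaining 38 of 44 libraries, among them the inputs and the Pcgf1 -/- H3K27me3 libraries, were not analysed here. Each list gives 1 value per region for its pair of libraries, so no value has a replicate error, the read depth is unknown, and no comparison of genotypes was possible.

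H3K27me3 is the trimethyl mark that EZH2 and its partners in Polycomb repressive complex 2 place on histone H3. RING1B is the ubiquitin ligase of Polycomb repressive complex 1, which marks histone H2A. In its canonical forms that complex is brought to H3K27me3 by a CBX protein that reads the mark. In a variant form it is built around PCGF1, with KDM2B as the partner that binds unmethylated CpG-rich DNA. The mark is known both as tall blocks over silenced developmental genes, where both complexes usually meet, and as low broad cover elsewhere. Genes were not assigned and no sequence is shown, since positions are those of mm9 and the gene and promoter tables used with this work belong to another build.

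Most short tall regions lacked both proteins. Of 2283 autosomal regions below 2000 bp with a height of at least 100, 2095 (91.8%, exact 95% binomial interval 90.6 to 92.9) shared no base with either list; such intervals cover counting error only and treat neighbouring regions as independent, which they are not. The share without either peak was 98.3% (98.2 to 98.4) of 62744 short regions below the height limit, 70.1% (69.3 to 70.9) of 12739 tall regions of 2000 bp or more, and 93.9% over all autosomal H3K27me3 regions. Absence of both proteins was thus slightly less common in the short tall regions than in the list at large. Of the other 188 short tall regions, 164 held RING1B alone, 18 held RING1B and PCGF1, and 6 held PCGF1 alone. The 2095 regions covered 2.81 Mb, which was 0.635% of the bases and 0.774% of the total signal of the autosomal regions.

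As listed, the regions had a short high stretch within wider borders. How the caller set those borders is not known, and no region in the whole list was narrower than 750 bp. Their height, the highest signal in the region on the authors' unstated scale, had a median of 109 (interquartile range 104 to 119, highest 682), against 68.0 over all autosomal regions. Their width had a median of 1330 bp (1015 to 1640, lowest 750), but only 260 bp of it (200 to 340, lowest 90, highest 1070) rose above the caller's cutoff, a median of 20.1% of the width. In the 188 short tall regions with RING1B or PCGF1 the stretch above the cutoff had a median of 345 bp (260 to 442.5), and in 61704 short regions below the height limit without either protein it was 130 bp (90 to 190). Mean signal, the total signal divided by the width, had a median of 20.7 per bp (interval from order statistics 20.4 to 21.0) in the 2095 regions, 24.6 (23.3 to 27.4) in those with RING1B or PCGF1 and 12.2 (12.1 to 12.2) in the lower ones. The highest point was a median of 5.52 times the mean signal in the 2095 regions, 4.99 times in the regions with RING1B or PCGF1, 5.0 times in the lower ones, 6.28 times in 8935 tall regions of 2000 bp or more without either protein and 5.39 times over all autosomal regions without either. The share of the width above the cutoff was 16.7% in those wide tall regions and 10.7% over all without either protein, so by neither measure were the 2095 regions the most pointed. Mean signal and height come from the same signal, and the height limit separates the 2095 regions from the lower ones.

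**Figure D1:**
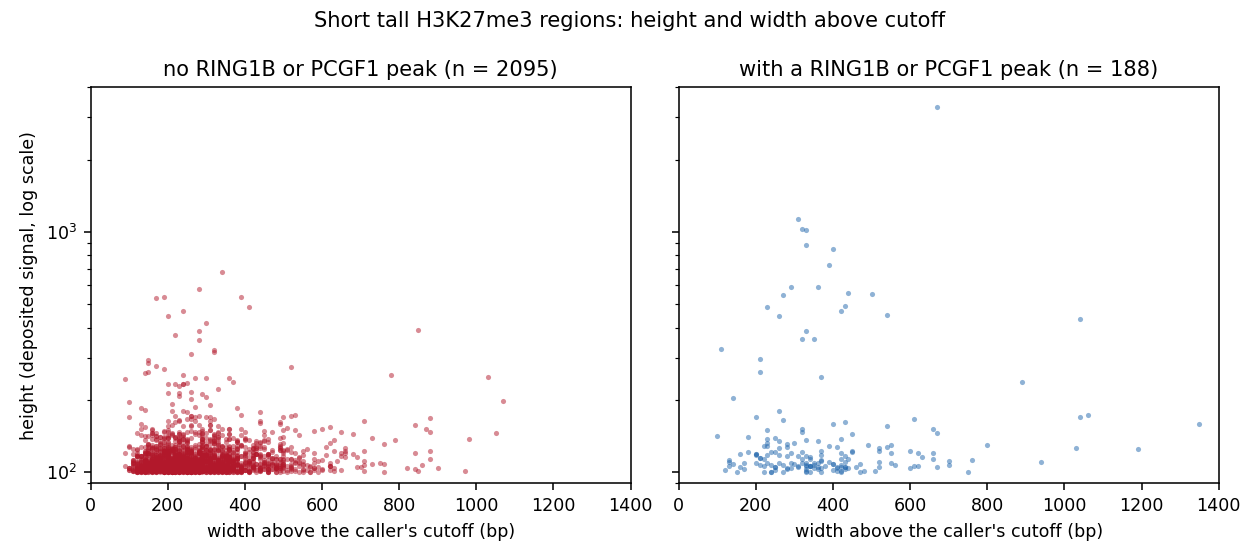
Height (deposited signal, log scale) against the width above the caller's cutoff (bp) for 2095 short tall H3K27me3 regions without RING1B or PCGF1 (left) and 188 with either (right); each point is a region. Points on the left reach a height of 682 and crowd near the limit of 100, while the tallest on the right reaches 3323.

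The height limit cut through a continuous distribution. Among short autosomal regions without either protein, 658 stood within 5 units above the limit and 904 within 5 units below it. The 5 nearest inside had a height of 100 and the 5 nearest outside had 99.9703 to 99.9976. At the width limit, 142 tall regions without either protein were up to 100 bp narrower than 2000 bp and 124 were 2000 bp or up to 100 bp wider. The 5 widest inside measured 1990 bp, with heights of 111 to 128, and the 5 nearest outside measured 2000 bp, with heights of 118 to 136. Width and height were almost unrelated across the 2095 regions (Spearman's rho 0.0038, across regions that share their libraries). The rule cut both values, so this holds only inside its limits. Among short regions without either protein, 4.51% (4.21 to 4.83) of those of 1500 bp or more reached the height limit, against 2.73% to 2.89% in the narrower classes. Across the 2095, wider regions had somewhat longer stretches above the cutoff (rho 0.32).

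Height split the regions very unevenly. A height below 120 was found in 1604 of them, 120 to 150 in 382, 150 to 200 in 64, 200 to 400 in 36, and 400 or more in 9. Among all short tall regions, before the rule removed those with RING1B, RING1B was most frequent in the highest class: 6.13% (5.04 to 7.37) of 1713 regions below 120 held RING1B, 9.26% (6.67 to 12.4) of 421 at 120 to 150, 16.9% (9.31 to 27.1) of 77 at 150 to 200, 15.6% (6.49 to 29.5) of 45 at 200 to 400, and 66.7% (46.0 to 83.5) of 27 at 400 or more. The 9 regions of height 400 or more were thus what was left of 27 after 18 with RING1B were set aside. Without RING1B or PCGF1, the taller classes were more pointed, in a ratio that holds height itself, with a median height of 5.40 times the mean signal in the lowest class, 7.94 times at 200 to 400 and 9.89 times at 400 or more, while the stretch above the cutoff stayed between 255 and 285 bp in every class.

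**Figure D2:**
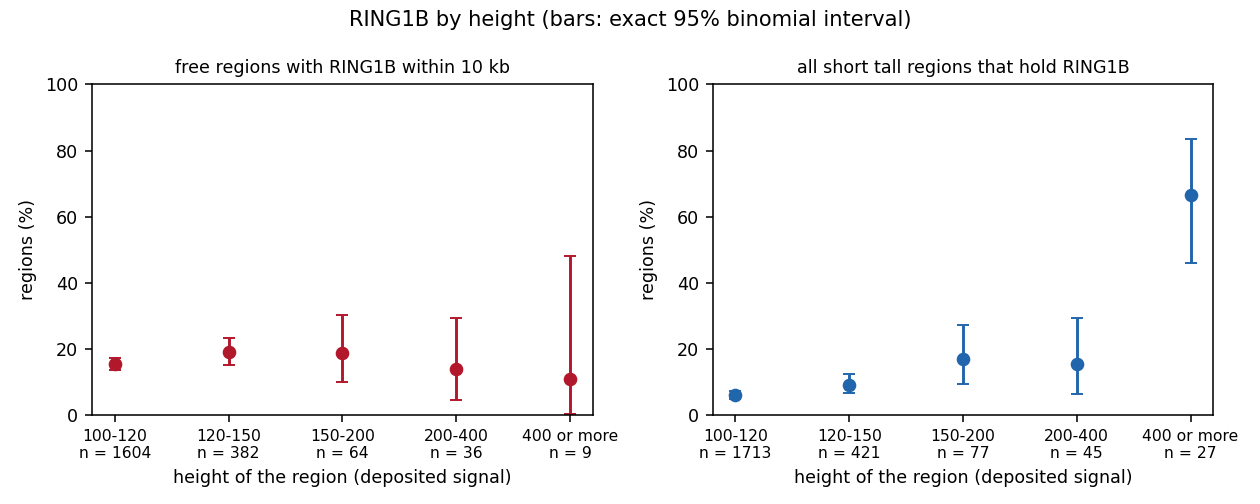
Left, the share of short tall regions without RING1B or PCGF1 that have a RING1B peak within 10 kb, by height class; right, the share of all short tall regions that hold RING1B, by height class (bars, exact 95% binomial intervals). The left share lies between 11.1% and 19.1%, and the right share is 6.13% in the lowest class and 66.7% in the highest.

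Although RING1B was absent from the regions themselves, it was somewhat nearer to them than to lower regions of like width. A RING1B peak lay within 10 kb of 340 of the 2095 regions (16.2%, 14.7 to 17.9). The same share was 10.5% (10.3 to 10.8) in the 61704 short regions below the height limit, 20.4% (19.6 to 21.3) in 8935 tall regions of 2000 bp or more, and 12.3% over all 113715 autosomal regions without either protein. The nearest RING1B peak was at a median of 79081 bp in the 2095 regions (72110 to 88716), 124066 bp (122041 to 126206) in the lower short regions and 41218 bp (39198 to 43075) in the wide tall ones. When peaks of a -log10 q below 5 were disregarded for overlap and distance alike, 49 of 2237 regions (2.19%, 1.62 to 2.89) had a RING1B peak within 10 kb. That filter kept 10.0% of all autosomal RING1B peaks. The filtered share was not computed for the other classes, so whether the regions were nearer to RING1B under it was not examined. A PCGF1 peak lay within 10 kb of 22 of the 2095 regions (1.05%, 0.659 to 1.59), against 0.938% (0.864 to 1.02) of the lower short regions and 1.09% (1.03 to 1.15) over all without either protein, so the list at large had the same share. No test was run between these classes, since regions of a list are not replicates and the rule itself used RING1B.

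**Figure D3:**
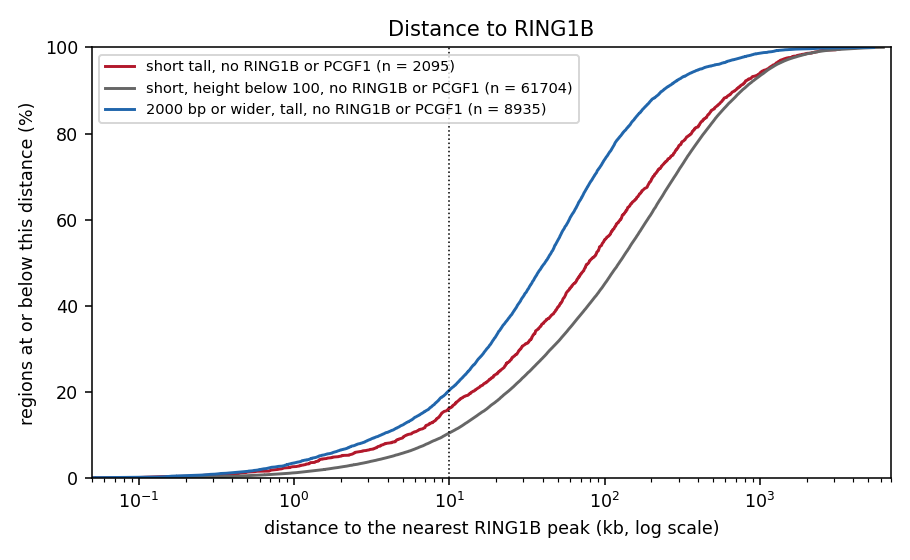
Share of regions (%) at or below a given distance to the nearest RING1B peak (kb, log scale), for the 2095 short tall regions, 61704 short regions of height below 100 and 8935 tall regions of 2000 bp or more, all without RING1B or PCGF1; the dotted line marks 10 kb. At 10 kb the curves stand at 16.2%, 10.5% and 20.4%.

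Mean signal was highest in the regions nearest to RING1B. Median height was nearly the same at every distance, which the height limit of the rule largely fixes, since 1604 of the 2095 regions had heights of 100 to 120. The 56 regions less than 1 kb from a RING1B peak had a median mean signal of 25.1 per bp, the 139 at 1 to 5 kb 22.9, the 145 at 5 to 10 kb 21.4, and the 127 beyond 1 Mb 19.3. Their median heights were 109.3, 109.4, 108.3 and 108.6. In between, the median was 20.8 at 10 to 50 kb, 21.7 at 50 to 100 kb, 20.4 from 100000 to 500000 bp and 18.6 from there to 1 Mb, so the decline was not steady. In the lower short regions it was 13.0 per bp below 1 kb, 12.9 at 50 to 100 kb and 11.3 beyond 1 Mb, with 11.5 to 12.2 in the other bins. In the wide tall regions without either protein it was 20.4 per bp below 1 kb, 18.8 at 50 to 100 kb and 14.5 beyond 1 Mb, with 14.5 to 19.2 in the other bins. A higher mean signal near RING1B was thus not particular to the 2095 regions. Across the 2095 regions Spearman's rho between distance and mean signal was -0.14 and between distance and height -0.037, points that share their libraries. By width, a RING1B peak lay within 10 kb of 12.1% (9.35 to 15.3) of 487 regions below 1000 bp and 19.03% (16.3 to 22.0) of 783 regions of 1500 bp or more. The other classes were not split by width, so whether this difference is particular to the 2095 regions was not examined.

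The RING1B peaks beside the regions had fold enrichments and widths close to those of RING1B peaks at large. The 340 regions within 10 kb of RING1B were nearest to 336 different RING1B peaks, with a median authors' fold enrichment of 3.19 (3.16 to 3.23), against 3.22 (3.22 to 3.23) over all 24323 autosomal RING1B peaks, and a median width of 755 bp against 744 bp. Of the 336 peaks, 126 (37.5%, 32.3 to 42.9) lay on another H3K27me3 region, 13 (3.87%, 2.08 to 6.53) held PCGF1 and 3 (0.893%, 0.185 to 2.59) were wider than 10000 bp. Over all autosomal RING1B peaks, 43.9% (43.3 to 44.6) lay on H3K27me3, 5.97% (5.68 to 6.28) held PCGF1 and 1.88% (1.71 to 2.06) were wider than 10000 bp. The 336 peaks could not lie on the region they stood beside, since the rule removed regions that share a base with RING1B. These shares are therefore not like for like. Peaks beside other H3K27me3 regions without either protein were not examined. Counted by region, 128 of the 340 stood next to a RING1B peak on a different H3K27me3 region and 212 next to a RING1B peak with no H3K27me3 under it.

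Beside all autosomal regions without either protein, slightly fewer of the regions had no RING1B within 100 kb and slightly more had none within 1 Mb. No RING1B peak lay within 100 kb of 936 regions (44.7%, 42.5 to 46.8), and none within 1 Mb of 127 (6.06%, 5.08 to 7.17). In the lower short regions these shares were 54.9% (54.5 to 55.3) and 6.61% (6.42 to 6.81), in the wide tall regions 26.0% (25.1 to 26.96) and 1.37% (1.14 to 1.63), and over all autosomal regions without either protein 47.7% (47.4 to 48.0) and 4.85% (4.73 to 4.98). The farthest were chr15:17089610-17091010 (height 107, 4334923 bp from RING1B), chr15:16973200-16974040 (height 100.2, 4218513 bp) and chr3:45665470-45667100 (height 103, 4118862 bp). All 3 had heights near the limit and between 1 and 3 other H3K27me3 regions within 50 kb, the highest of them at 84.5. The nearest was chr18:31718520-31719500, which ended 28 bp before a 286 bp RING1B peak of fold 3.10 and had a height of 123. Next came chr12:111972530-111974120, 56 bp from a RING1B peak of fold 3.88, and chr6:47614910-47616100, 92 bp from a RING1B peak of fold 2.92 and 520 bp from a PCGF1 peak of fold 2.98. These 3 are without RING1B only in the sense that the listed borders do not meet.

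The regions stood among other H3K27me3 as often as the list at large. Another H3K27me3 region lay within 5 kb of 1248 of the 2095 (59.6%, 57.4 to 61.7), against 48.7% (48.3 to 49.1) of the lower short regions, 86.9% (86.2 to 87.6) of the wide tall ones and 60.5% over all autosomal regions without either protein. The median gap to the nearest other region was 3760 bp, and no gap in the whole list was below 1510 bp. Another region of at least 5000 bp lay within 10 kb of 535 (25.5%, 23.7 to 27.5), against 16.7% (16.4 to 17.0) of the lower short regions and 28.2% over all. In the 188 short tall regions with RING1B or PCGF1 the share with such a wide neighbour was 45.7% (38.5 to 53.2). Of the 2095, 1334 (63.7%, 61.6 to 65.7) had no taller region within 50 kb, 44 of them (2.10% of all 2095) with no other region there at all, and 1067 (50.9%, 48.8 to 53.1) had another region of height 100 or more in that range. Over all autosomal regions without either protein these shares were 15.8%, 1.91% and 48.2%. The first of these shares depends on the height limit of the rule. Under the same limit it was 43.2% in the wide tall regions and 46.8% in the 188 short tall regions with RING1B or PCGF1. The remaining shares were near those of the list at large. Another region of height 100 or more stood within 50 kb of 79.1% of the wide tall regions, 72.9% of the 188 and 37.3% of the lower short regions.

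Few of the regions had another of their own kind close by, though the share was above that of the list at large. Another of the 2095 lay within 10 kb of 97 (4.63%, 3.77 to 5.62), whereas 2.65% of all autosomal regions without either protein had one of the 2095, other than themselves, in that range. The share was 2.23% (2.12 to 2.35) in the lower short regions and 4.43% (4.01 to 4.88) in the wide tall ones. The 97 formed 44 pairs and 3 runs of 3. The strongest run, chr5:14952010-14960010, had heights of 486, 157 and 202, with 139751 bp to the nearest RING1B peak, and lay between a region of 27060 bp and height 362 and a region of 2790 bp and height 322. In the run at chr16:16706550-16718590 the heights were 117, 157 and 127, above neighbours of 48.3 to 103 within 20 kb. The run at chr6:90124550-90138730 had heights of 115, 113 and 109, with a lower region of height 46.8 among them.

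The tallest regions differed widely in their surroundings. Input libraries and mappability were not analysed here, so whether the input was also high at these narrow regions was not tested. The tallest, chr8:114389450-114390400, had a height of 682 and a mean signal of 134 per bp over 950 bp, 340 bp of it above the cutoff. The other 8 regions within 50 kb of it reached 150 at most, a 326 bp RING1B peak of fold 3.06 lay 11424 bp away and a PCGF1 peak 43979 bp away. The next was chr14:71053040-71054940, with a height of 580 and a neighbour of height 94.7 at a gap of 1710 bp. After it came chr18:85867090-85868400, with a height of 535, the nearest RING1B peak 823185 bp away and 3 other regions within 50 kb of height 59.2 or less. It was followed by chr1:188892190-188893140, with a height of 534 and only 190 bp above the cutoff, where the single other region within 50 kb had a height of 94.8.

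Only the fifth stood beside strong RING1B. chr10:21862140-21863270 had a height of 530, 170 bp of it above the cutoff, and lay 4526 bp from a 12965 bp RING1B peak of fold 19.4 and 5441 bp from a PCGF1 peak of fold 5.63. The highest of the 14 other H3K27me3 regions within 50 kb had a height of 203. The sixth was chr5:14952010-14953940 of the strongest run, where another region within 50 kb reached 462. The seventh to ninth were chr16:52713840-52715450 (height 467), chr18:40466840-40467970 (height 445) and chr11:88942960-88944890 (height 416), with other regions of at most 70.3, 88.0 and 151 within 50 kb. The tenth, chr8:19750340-19752160, had a height of 391 and was unlike the rest in that 850 of its 1820 bp rose above the cutoff and a taller neighbour of height 444 stood within 50 kb.

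**Figure D4:**
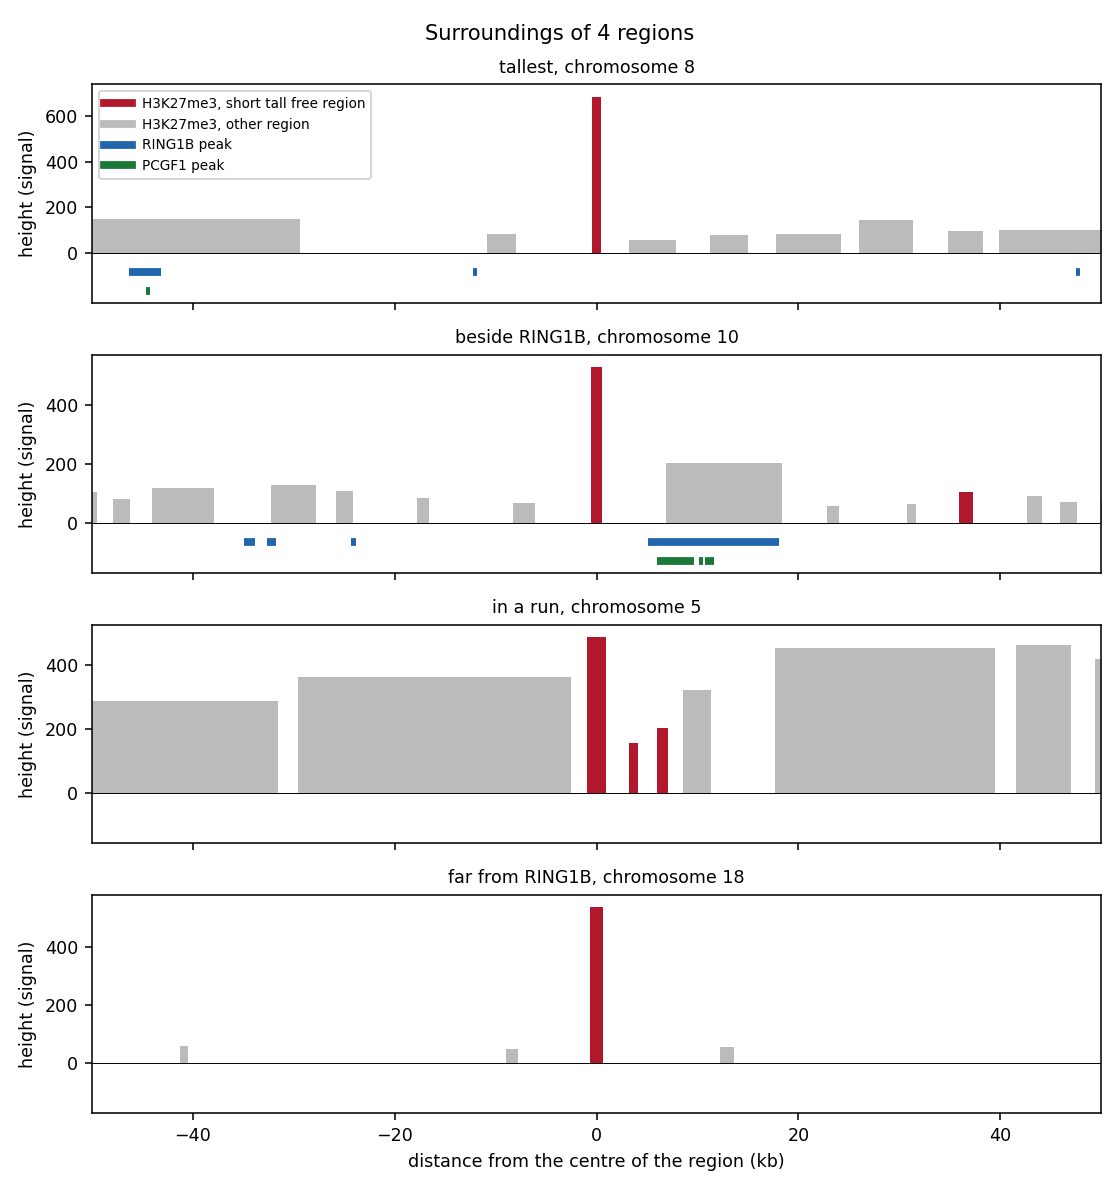
H3K27me3 regions drawn at their height (deposited signal) over their full width, with RING1B and PCGF1 peaks as bars under the axis, by distance (kb) from the centre of the tallest region, the tallest within 10 kb of RING1B, the tallest of the strongest run and a region 823185 bp from RING1B; red marks short tall regions without RING1B or PCGF1. The regions on chromosomes 8, 10 and 18 stand at 682, 530 and 535 above neighbours of at most 150, 203 and 59.2, and the run on chromosome 5 lies among neighbours of up to 462.

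Of the 10 tallest, 1 lay within 10 kb of RING1B, 6 had another H3K27me3 region within 5 kb and 9 had no taller region within 50 kb, a count that their choice by height largely fixes. In all 2095 regions, 16.2% lay within 10 kb of RING1B and 59.6% had another region within 5 kb. Over all autosomal regions without either protein these shares were 12.3% and 60.5%. Their height was 5.09 to 15.0 times their mean signal. In the 45 regions of height 200 or more, spread over 15 chromosomes, 6 lay within 10 kb of RING1B (against 340 of all 2095) and 18 had no RING1B within 100 kb (against 936 of all 2095). Whether the tallest regions differed from the rest in these counts was not tested.

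Over the autosomes the regions made up 1.73% (1.66 to 1.81) of all H3K27me3 regions, or 0.867 per Mb of listed span. The highest share was 2.12% (1.79 to 2.49) on chromosome 13, with 142 of 6698, and the lowest were 1.36% (1.10 to 1.67) on chromosome 9, with 92 of 6748, and 1.37% (1.12 to 1.67) on chromosome 5. The other 16 chromosomes lay between 1.44% on chromosome 12 and 2.02% on chromosome 3, with intervals that included the autosomal share. Within 10 kb of RING1B lay from 7.61% (3.11 to 15.1) of the regions on chromosome 9 to 24.3% (14.8 to 36.0) on chromosome 19. These intervals overlap at their ends. The same share was not computed by chromosome for other H3K27me3 regions, so whether this range is particular to the regions was not examined. The 9 regions of height 400 or more lay on 8 chromosomes, with 2 of them on chromosome 18.

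**Figure D5:**
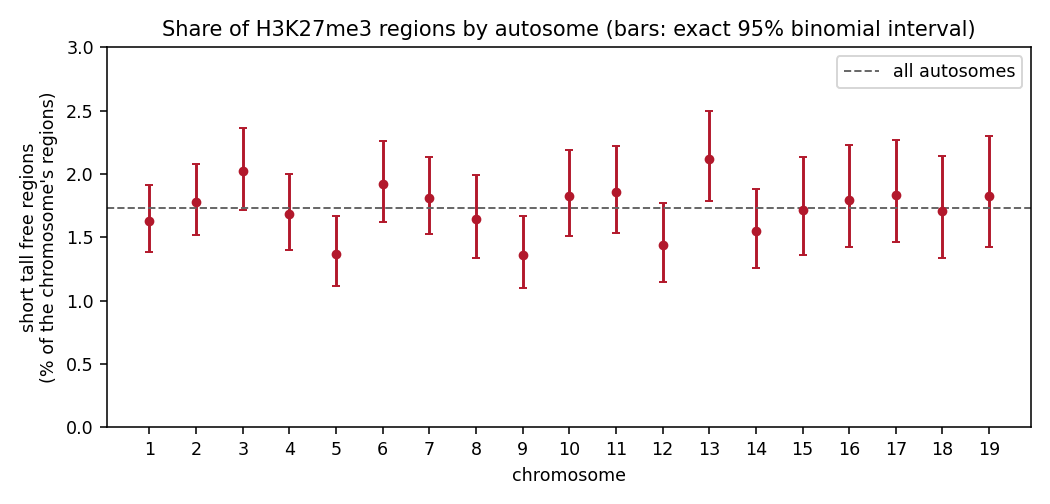
Short tall regions without RING1B or PCGF1 as a share (%) of all H3K27me3 regions of each autosome, with exact 95% binomial intervals; the dashed line is the share over all autosomes. Points lie between 1.36% on chromosome 9 and 2.12% on chromosome 13, around the dashed line at 1.73%.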

How the data were processed

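Chromatin immunoprecipitation libraries of IdHP cells gave 3 deposited peak lists, grouped by their labels. The submitters' processing notes name the tools Bowtie2, Picard and SAMtools 1.6.0 and the builds mm9 and dm3, without roles; mouse positions are read as mm9. For the caller, its threshold, its control and the joining of the 2 libraries the answer is the same: not given in the sources used here. In the deposited H3K27me3 table the columns are, per the file headers, a signal height, a total signal, a width above cutoff and a log p. Total signal was read as summed over the bases of the region, and every mean signal per bp rests on that reading. The log p was read as -log10 p. It was fixed by the height rounded down (0 of 382 whole-number heights had more than 1 value) and is not used. The deposited fold ratio and -log10 q of the broadPeak lists come from the authors for each peak and serve only to describe or filter peaks. Depth is unknown.

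Overlap meant at least 1 shared bp, and distance is the number of bases between borders. RING1B and PCGF1 starts were read as 0-based; H3K27me3 positions are printed as listed, in steps of 10 bp. Shares have exact Clopper-Pearson intervals and medians have order-statistic intervals, both at 95% (Python 3.11.15, pandas 2.3.3, scipy 1.17.1, checked on simulated intervals). No hypothesis test was run. The rule for named sites took the 10 tallest regions, the 3 largest runs within 10 kb, and the 3 farthest from and nearest to RING1B. The regions, classes and limits were chosen with earlier results of these data known. Alternatives are given in the closing section.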

Additional observations from a re-analysis of the deposited data

How the results depend on the processing

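Of 64 recomputed values, 33 stayed within the interval of the reported value (or within 1.5 times a count) and 31 moved outside it; most settings redefine which regions are counted, so movement follows from their construction. The number of regions, 2095, became 487 with a width limit of 1000 bp, 109 with a height limit of 150 and 8057 with the width above the cutoff as width. With RING1B or PCGF1 within 1 kb counted as shared, the share of short tall regions without either was 89.3% and the share near RING1B 13.9%. With only peaks of -log10 q of at least 5 counted as overlap they were 98.0% and 21.5%; distance there was still taken to any RING1B peak, so the weaker peaks on the added regions count as near. With those peaks alone used for overlap and distance (added after the data had been seen), the share near RING1B was 2.19%. In the order share without either protein, RING1B within 10 kb, another region within 5 kb, a region of at least 5000 bp within 10 kb, another of the same kind within 10 kb and median mean signal, the values were 94.9%, 12.1%, 57.3%, 23.0%, 0.821% and 25.9 per bp with the width limit of 1000 bp. With the width above the cutoff as width they were 83.7%, 19.2%, 77.0%, 47.1%, 23.5% and 17.5 per bp. With the height limit of 150 they were 73.2%, 16.5%, 65.1%, 31.2%, 8.26% and 29.5 per bp. The share on chromosome 13 was 0.433% and 0.164% with the width limit of 1000 bp and the height limit of 150. RING1B lay within 5 kb of 9.31% and within 20 kb of 24.1%, and another of the same kind within 5 kb of 2.39% and within 20 kb of 7.97%. Leaving out chromosome 8 or heights of 400 or more, and reading H3K27me3 starts as 1-based, a setting chosen after seeing the data, moved no value outside its interval.

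No paired analysis was possible because each list stands for its 2 libraries together; for the same reason values without 1 library do not exist. Read depth is unknown, so absence of RING1B means only that no peak was listed.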

Other observations

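Chromosome X, which the rule left out, held 365 regions of the same kind among 13557, or 2.69% (2.43 to 2.98), against 1.73% (1.66 to 1.81) on autosomes. Its H3K27me3 regions were also denser, at 82.8 per Mb of listed span against 50.1 per Mb on autosomes. Its tallest such region had a height of 483, against 682 on autosomes. Unplaced and Y sequence held 17 among 778.

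The blocks of 1 Mb with the highest counts were 2 neighbours on chromosome 4, chosen after their values were seen. From 145000001 to 146000000 there were 10 short tall regions without RING1B or PCGF1 among 113 H3K27me3 regions (8.85%), with heights of 102 to 152. From 146000001 to 147000000 there were 10 among 111 (9.01%), with heights of 100.5 to 145. Over all autosomes the share was 1.73%, with 50.1 H3K27me3 regions per Mb, so both blocks were also dense in H3K27me3 regions of any kind. Neither block held a RING1B peak, and the nearest to any of these regions was 245363 bp away. The next by count, on chromosome 7 from 113000001 to 114000000, had 8 among 57, a higher share (14.0%). It held 9 RING1B peaks, the nearest 1251 bp away. Such regions occurred in 1320 of 2482 autosomal blocks of 1 Mb, with a median of 1 in occupied blocks.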
